A study of Mus musculus with 12 samples.

Results

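The genes described here encode the SR proteins and the heterogeneous nuclear ribonucleoproteins (hnRNPs) of mouse left ventricle. The set was chosen with earlier results of these data known. Its members were taken by gene symbol, as Srsf followed by a number or Hnrnp followed by a letter, a rule that uses no measured value. This rule took 32 of the 29564 genes in the expression table, 11 of them Srsf genes and 21 of them Hnrnp genes. Of these, 30 had enough reads to be tested, 10 Srsf and 20 Hnrnp genes. The others were Srsf12, with 0 to 9 estimated counts per library, and the pseudogene Hnrnpa1l2-ps, with 0 to 2.11.

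Poly(A) RNA was sequenced from the left ventricle of 12 wild-type C57BL6 mice in 3 groups of 4, 1 animal per library. Control-Veh mice were non-failing and received the dosing vehicle, a mixture of DMSO, PEG-300 and water. HFpEF-Veh mice ate a high-fat diet and were given L-NAME, which inhibits nitric oxide synthases, as a model of HFpEF (heart failure in which ejection fraction is preserved), and were also dosed with vehicle. In the HFpEF-TYA-018 group, mice made diseased in that way were given 15 mg/kg of TYA-018, a selective inhibitor of the deacetylase HDAC6, by mouth in the vehicle. The series is titled as a single-dose study, and the study's results describe hearts taken hours after a single dose. The treatment notes in the labels describe daily dosing, as do the study's methods, so the exposure behind these libraries is not certain. The labels give no age, sex or batch, and the study's methods describe male mice, with controls on standard chow. All 3 groups are whole ventricle, so fewer cells of a type and less RNA per cell cannot be told apart. The animal numbers of each group lie together, so cage, date or handling order and group cannot be told apart either. In the text, C1 to C4 are the Control-Veh libraries, V1 to V4 the HFpEF-Veh libraries and T1 to T4 the HFpEF-TYA-018 libraries, and a replicate number pairs nothing between groups.

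SR proteins carry RNA recognition motifs and a tail rich in arginine and serine repeats, and bind exonic enhancers to recruit the spliceosome. The hnRNPs coat nascent transcripts, often repress nearby splice sites, and also act in RNA export, stability and translation. Both families frequently compete for the same exons, SR protein activity is set by phosphorylation of the tail, and many of the families' own transcripts contain a conserved "poison" exon that routes the mRNA to nonsense-mediated decay. In the heart, splicing switches in titin, troponin T and CaMKII transcripts depend on such factors.

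Libraries held 61.2 to 83.9 M estimated counts (M, 1000000). Mitochondrially encoded genes took 45.1% ± 2.06 of the HFpEF-Veh counts, beside 38.8% ± 1.58 for controls and 38.9% ± 2.65 for treated mice (SD, n = 4). The summed level of 10 cardiomyocyte markers was 38116 ± 4661, 29654 ± 938 and 34454 ± 1493 CPM (counts per 1000000, scaled by TMM) in control, vehicle-treated and TYA-018-treated diseased mice, in that order, with none at 0. The 8 fibroblast markers summed to 554 ± 109, 892 ± 131 and 584 ± 94.3 CPM, and the 8 endothelial markers to 845 ± 60.7, 1029 ± 82.3 and 818 ± 80.7 CPM. Leukocyte markers, of which 7 of 8 were in the table, summed to 122 ± 14.7, 191 ± 23.6 and 141 ± 12.9 CPM. The 7 smooth muscle and pericyte markers summed to 891 ± 53.3, 1000 ± 40.1 and 847 ± 71.4 CPM. This list was split in HFpEF-Veh against Control-Veh, with 3 markers higher and 4 lower, of which 1 was called higher and 0 lower. The 5 red cell markers summed to 2020 ± 345, 8203 ± 4159 and 2911 ± 569 CPM, with HFpEF-Veh libraries from 4785 to 14139. Several of these markers moved with the groups in the same comparisons as the splicing genes, and their part in the results that follow was not tested. Proliferation markers summed to 19.9 ± 3.75, 30.8 ± 10.9 and 16.6 ± 1.73 CPM. That sum does not stand for its members. In treated against control hearts 5 of the 6 were higher and 1 lower, with 3 called higher and 1 called lower. Atrial markers summed to 193 ± 50.0, 114 ± 39.1 and 151 ± 10.6 CPM, and clock genes to 582 ± 43.4, 486 ± 17.3 and 497 ± 34.7 CPM.

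By TPM, a level per transcript length, Hnrnpk was the most abundant of the 32 genes, with a mean of 71.0 TPM over the 12 libraries. Srsf2 followed at 59.4 TPM, Hnrnph1 at 44.3, Hnrnpl at 31.3 and Srsf6 at 26.0. At the low end of the tested genes stood Hnrnpc at 1.63 TPM, Srsf7 at 1.17 and Hnrnpul1 at 0.170. Neighbours in this order often did not differ beyond their spread. In Control-Veh, for instance, Hnrnpk was at 69.2 ± 15.8 TPM and Srsf2 at 66.0 ± 9.75 TPM (SD, n = 4). The order also rests on the effective lengths described further on, which for several of these genes lay outside the annotated transcript lengths. Those of Hnrnpk, Srsf2 and Hnrnph1 lay within them but were short, at 542 to 750, 569 to 854 and 818 to 1068 bases. Their longest annotated transcripts have 2970, 1899 and 4577 bases. As Control-Veh means in CPM, Srsf5 at 191 and Hnrnpl at 159 stood above Hnrnpk at 124. In CPM, which is not divided by length, the 30 tested genes varied little between animals of a group. Their median within-group coefficient of variation was 7.49%, against 11.4% over all 14333 genes tested.

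Srsf11, Srsf6, Hnrnpl, Hnrnpf and Hnrnpul1, 5 of the 30 tested genes, passed the test in at least 1 of the 3 comparisons. Their positions in GRCm38 are chr3:158010473-158036639 on the minus strand for Srsf11, chr2:162931528-162937121 on the plus strand for Srsf6, chr7:28808541-28822266 on the plus strand for Hnrnpl, chr6:117900324-117925622 on the plus strand for Hnrnpf and chr7:25721165-25754757 on the minus strand for Hnrnpul1. Values are sums over each gene's transcripts and so cover all its exons. Sequence upstream of an annotated start is shown for 3 of them, those whose change was present in each fit that left out 1 library. Each line gives the 200 bases before a RefSeq start on GRCm38.p6, 5′ to 3′ on the gene's strand, at chr3:158031749-158031948 (minus), chr2:162931308-162931507 (plus) and chr6:117900140-117900339 (plus). Capitals mark matches to the motifs searched, which are named after the sequences.
Srsf11: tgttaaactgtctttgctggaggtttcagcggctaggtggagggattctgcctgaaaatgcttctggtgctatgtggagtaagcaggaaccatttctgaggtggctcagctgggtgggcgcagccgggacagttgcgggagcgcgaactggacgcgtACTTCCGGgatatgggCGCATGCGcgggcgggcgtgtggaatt
Srsf6: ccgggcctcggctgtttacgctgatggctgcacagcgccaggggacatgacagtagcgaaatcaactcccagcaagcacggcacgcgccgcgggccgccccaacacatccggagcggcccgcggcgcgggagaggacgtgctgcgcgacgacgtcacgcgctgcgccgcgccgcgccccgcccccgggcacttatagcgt
Hnrnpf: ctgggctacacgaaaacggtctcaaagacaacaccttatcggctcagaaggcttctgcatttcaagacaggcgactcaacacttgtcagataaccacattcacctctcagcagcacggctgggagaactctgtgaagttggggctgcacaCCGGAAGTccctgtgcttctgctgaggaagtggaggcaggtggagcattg

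The Srsf11 window held ACTTCCGG, the letters of an ETS-type site, at positions -43 to -36 and the palindrome CGCATGCG, an NRF1-type site, at positions -27 to -20, counted back from the start. The Hnrnpf window held the reverse complement of ACTTCCGG at positions -50 to -43. The Srsf6 window, 72.5% G and C with 32 CG dinucleotides, held none of the motifs searched. Srsf11 and Hnrnpf have other annotated starts, whose windows lie mostly in exons and are not shown. The Srsf11 start used here lies inside the gene's annotated span, downstream of its other start near the 5′ end. The window of that other Srsf11 start held none of the motifs searched. RefSeq windows of 300 bases, 250 before and 50 after a start, were given for 29 of the 32 genes (41 windows). Their median G and C content was 68.3%, against 52.7% over 32851 windows of all genes. ACTTCCGG, searched on both strands, was in a window of 5 of the 29 genes (17.2%, against 4.31% of 27025 genes). The palindrome CTCGCGAG was in 3 (10.3%, against 1.04%), CGCATGCG in 3 (10.3%, against 2.07%), CCAAT in 17 (58.6%, against 41.1%), the E-box CACGTG in 5 (17.2%, against 8.09%), the YY1-type AAGATGGC in 1 (3.45%, against 3.19%) and the cyclic AMP response element TGACGTCA in 0 (0.0%, against 2.03%). These matches are counts of letters, and base composition differed between the windows compared.

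To ask how the disease model alone altered these genes, HFpEF-Veh was compared with Control-Veh. The SR protein genes Srsf11 and Srsf6 and the hnRNP gene Hnrnpl fell in the model, by 23.8%, 25.9% and 19.7% of the Control-Veh level. Hnrnpf rose by 27.5%, and Hnrnpul1, the least abundant of the tested genes, rose with most of its reads in a single library. In all, 5 of 30 genes (16.7%) passed an adjusted p under 0.05 in edgeR's quasi-likelihood test, 2 higher and 3 lower, beside 21.2% of all 14333 genes, 10.9% higher and 10.3% lower. As a set, therefore, the SR protein and hnRNP genes were called no more often than genes at large. The median log2 fold change was -0.04 for the 30 genes and -0.01 for all genes. Levels did not overlap between the groups for 5 genes, 1 higher and 4 lower, beside 23.5% of all genes in either direction.

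Srsf11 encodes an arginine and serine rich protein that contacts factors at both ends of an intron. It was at 70.5, 73.0, 69.6 and 76.0 CPM in C1 to C4, at 61.0, 52.7, 51.3 and 55.1 CPM in V1 to V4, and at 46.5, 53.9, 52.1 and 42.6 CPM in T1 to T4. Every HFpEF-Veh and HFpEF-TYA-018 library lay below every Control-Veh library, and the groups of diseased mice overlapped each other. The log2 fold change of HFpEF-Veh against Control-Veh was -0.39 (SE 0.08, adjusted p = 0.00561, edgeR). Of the gene's 31-base words, 0.724% also occur in transcripts of other genes, and it overlaps Gm43362, a gene model of unsettled type on the same strand.

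Srsf6 encodes an SR protein that acts on exon inclusion in many tissues, and whose own transcripts include a form subject to nonsense-mediated decay. It was at 98.6, 106, 114 and 108 CPM in C1 to C4, at 87.9, 69.8, 75.8 and 82.5 CPM in V1 to V4, and at 93.5, 98.4, 90.7 and 67.7 CPM in T1 to T4. All HFpEF-Veh libraries were below all Control-Veh libraries, with the HFpEF-TYA-018 libraries mostly between and T4 the lowest of the 12. The log2 fold change of HFpEF-Veh against Control-Veh was -0.43 (SE 0.11, adjusted p = 0.0161, edgeR). It shares no 31-base word with another gene. With the effective lengths as an offset the log2 fold change was -0.34 and no longer past the threshold (adjusted p = 0.0805, edgeR).

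Hnrnpl encodes an hnRNP that binds CA-rich elements in introns and exons. It was at 145, 172, 157 and 162 CPM in C1 to C4, at 135, 121, 131 and 125 CPM in V1 to V4, and at 152, 137, 121 and 119 CPM in T1 to T4. HFpEF-Veh lay below Control-Veh without overlap, and HFpEF-TYA-018 spanned the gap between them. The log2 fold change of HFpEF-Veh against Control-Veh was -0.32 (SE 0.08, adjusted p = 0.0202, edgeR). It was no longer past the threshold without C2, C4, V2 or V4, each left out alone, where its adjusted p was at most 0.0581. The antisense gene Gm44702 overlaps Hnrnpl, and since the strand setting of the authors' counting is not stated, reads of the 2 genes may not be told apart.

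Hnrnpf encodes an hnRNP of the F and H group, which binds runs of G near splice and polyadenylation sites. It was at 80.0, 69.2, 75.4 and 74.9 CPM in C1 to C4, at 93.5, 98.8, 98.5 and 91.0 CPM in V1 to V4, and at 72.8, 75.9, 75.7 and 76.6 CPM in T1 to T4. The HFpEF-Veh libraries stood above all 8 others, and HFpEF-TYA-018 fell within the range of Control-Veh. Its log2 fold change of HFpEF-Veh against Control-Veh was 0.35 (SE 0.06, adjusted p = 0.00162, edgeR), and its within-group coefficient of variation, 4.05%, was the lowest of the 30 genes. Of its 31-base words 38.5% also occur in 7 other genes, of which Gm6430 holds the most. The 5 of those that are in the table held only 7.87 to 38.4 counts per library together, beside a mean of 5442 for Hnrnpf, and the sum of all 6, an alternative added after seeing the data, gave the log2 fold change 0.35 as well (adjusted p = 0.00158, edgeR). On the TPM scale the rise was much smaller, while with effective lengths as an offset edgeR still called Hnrnpf. Why these scales differed was not tested. Hnrnpf was at 14.0 ± 0.694, 15.0 ± 1.35 and 14.9 ± 2.34 TPM in the 3 groups (SD, n = 4), and on log2(TPM + 1) its log2 fold change was 0.084 (adjusted p = 0.678, limma), or 0.18 with centring (adjusted p = 0.0644, limma). Its opposite strand carries 2 genes of unsettled type, 4933440N22Rik and Gm43863.

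Hnrnpul1, whose protein belongs to the hnRNP U-like group and takes part in transcription and DNA damage responses, was barely expressed in these tables. Its levels were 0.149, 0.404, 0.378 and 0.919 CPM in C1 to C4, 2.05, 0.388, 9.60 and 1.74 CPM in V1 to V4, and 0.489, 0.601, 0.562 and 1.58 CPM in T1 to T4. V3 alone held 632 estimated counts, V2 held 22.9, within the Control-Veh range of 11.4 to 62.7, and the groups overlapped. The log2 fold change was 2.89 (SE 0.84, adjusted p = 0.0302, edgeR), and without V3 it was 1.58 (adjusted p = 0.132, edgeR). The call was also lost without C1, C2 or C3.

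**Figure D1:**
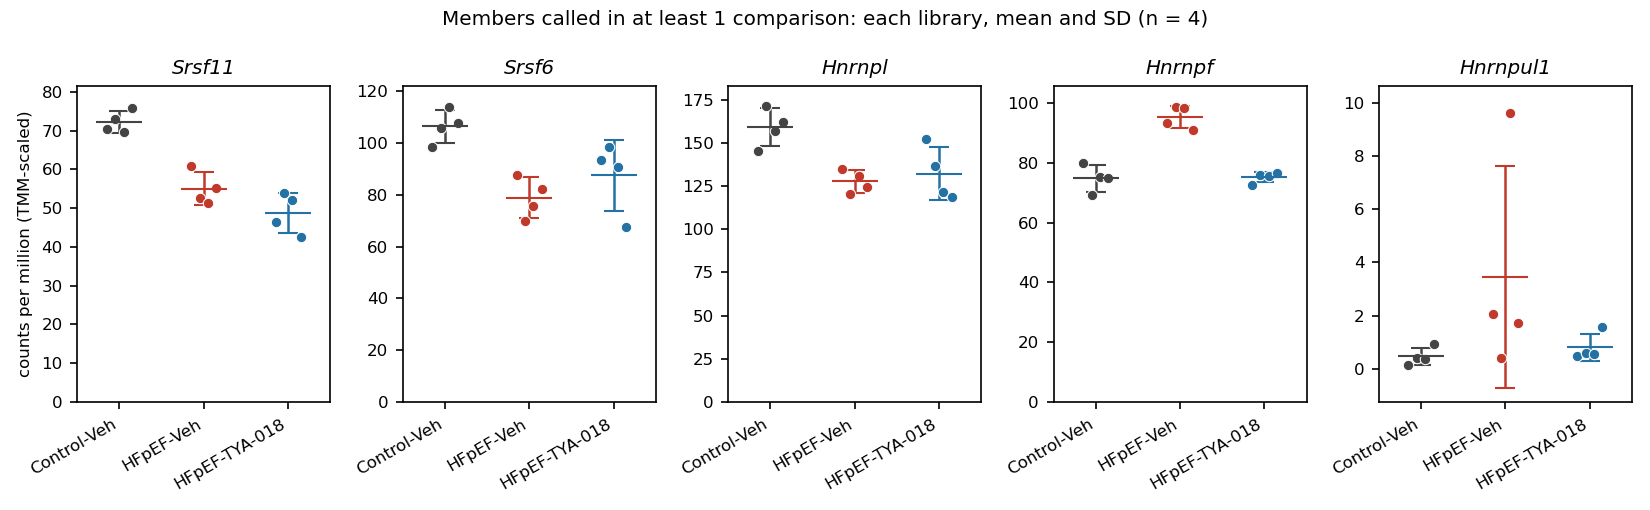
Level in CPM (TMM-scaled, each axis from 0 or below) of the 5 genes called in at least 1 comparison, 1 point per library, with the mean (bar) and SD (whiskers) of 4 libraries per group. Srsf11 sits below Control-Veh in both diseased groups, Hnrnpf is raised in HFpEF-Veh only among the 3 groups, and Hnrnpul1 in HFpEF-Veh is carried by a library at 9.60.

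Within the Srsf family 9 of 10 estimates were below 0, beside 7367 of all 14333 genes, with a median log2 fold change of -0.14. The 20 Hnrnp genes had a median of 0.02 with 11 above 0. Summed over the 10 Srsf genes, the level was 739 ± 44.7 CPM in Control-Veh and 643 ± 26.7 CPM in HFpEF-Veh (SD, n = 4), with ranges of 688 to 796 and 609 to 673. The ranges did not overlap. The largest parts of this difference came from Srsf5, Srsf6 and Srsf11. Their means were 191, 107 and 72.3 CPM in Control-Veh and 154, 79.0 and 55.0 CPM in HFpEF-Veh. Hnrnp genes summed to 1325 ± 20.0 and 1310 ± 40.0 CPM, ranges that did overlap. As a share of all estimated counts the 32 genes together, untested ones included, took 0.210% ± 0.00975 in Control-Veh and 0.185% ± 0.0121 in HFpEF-Veh. With mitochondrially encoded genes left out the shares were 0.344% ± 0.0222 and 0.337% ± 0.0219, a difference smaller than the spread. These sums were not tested.

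These calls depended on the scale. On log2(TPM + 1) of the deposited values, which unlike those of the study's methods still include mitochondrially encoded and noncoding genes, limma called 0 of the 30 genes for HFpEF-Veh against Control-Veh, and with each library centred on its median, an alternative added after seeing the data, it called 2, Srsf11 and Srsf6. An unadjusted p under 0.05 in edgeR was reached by 7 of 30 (23.3%, beside 35.5% of all genes).

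To ask what the inhibitor altered in the diseased heart, treated hearts were set against those of HFpEF-Veh mice. Both this comparison and the first use the HFpEF-Veh libraries, so a high value there raises the one and lowers the other. Hnrnpf fell by 21.2% and was the only one of the 30 genes past the threshold (3.33%, beside 19.3% of all genes tested, 8.93% higher and 10.4% lower). Its log2 fold change was -0.34 (SE 0.06, adjusted p = 0.00248, edgeR), with all 4 treated libraries below all 4 vehicle libraries, and it was -0.34 again when summed with the genes that share its words (adjusted p = 0.00247, edgeR). On log2(TPM + 1) the fold was near 0, at -0.012 (adjusted p = 0.945, limma), and with centring it was -0.22 (adjusted p = 0.0223, limma). Against Control-Veh the treated level differed by 0.01 (95% interval -0.11 to 0.13).

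None of the other genes called in the model passed here. For Srsf11 the log2 fold change against HFpEF-Veh was -0.17 (SE 0.08, adjusted p = 0.148, edgeR). Srsf6 differed by 0.15 (95% interval -0.09 to 0.39) and Hnrnpl by 0.05 (95% interval -0.13 to 0.23). Hnrnpul1 differed by -2.10 (SE 0.81, adjusted p = 0.0896, edgeR) with overlapping groups. Without T4, Srsf6 did pass in this comparison, and Hnrnpf was then 1 of 2 genes called.

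Near the threshold lay Hnrnpll, a paralogue of Hnrnpl known for CD45 exon choice in T cells, at -0.28 (adjusted p = 0.0509, edgeR). Hnrnpa2b1, which binds RNA marks and sorting signals, followed at 0.18 (adjusted p = 0.0577, edgeR), with treated libraries at 109, 118, 118 and 112 CPM against 107, 100, 93.3 and 102 CPM. Neither gene's treated libraries overlapped its vehicle libraries, as for 4 of the 30 genes and 25.1% of all genes, and neither was called. Srsf10, a splicing repressor when dephosphorylated, was at -0.16 (adjusted p = 0.0704, edgeR). These 3 genes were picked after their values were seen. The median log2 fold change was -0.07 for the 30 genes and 0.00 for all genes. Below 0 were 7 of 10 Srsf genes, beside 7124 of all 14333 genes. In edgeR 8 of 30 genes (26.7%, beside 33.2% of all genes) had an unadjusted p under 0.05.

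More genes were called under several other settings of this comparison. DESeq2 called 3 (Hnrnpf, Hnrnpll and Hnrnpa2b1), and a fit with effective lengths as an offset called 4 (Hnrnpf, Hnrnph2, Hnrnpr and Srsf4). The uncentred log2(TPM + 1) scale called 2, Hnrnpa0 and Hnrnpa2b1, both higher, and not Hnrnpf. On that scale the median of all genes was itself shifted by 0.17, and with centring only Hnrnpf was called.

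To ask how far treated diseased hearts stood from controls, their levels were set against those of Control-Veh mice. Srsf11 was the 1 gene called (3.33%, beside 5.86% of all genes tested, 3.12% higher and 2.74% lower). It fell by 32.5%, with a log2 fold change of -0.57 (SE 0.08, adjusted p = 0.00354, edgeR), and no treated library reached the lowest control library. Srsf6 was at -0.28 (adjusted p = 0.148, edgeR) and Hnrnpl at -0.27 (adjusted p = 0.0849, edgeR). Srsf5, an SR protein gene responsive to insulin and growth signals, was at -0.37 (adjusted p = 0.102, edgeR). Its levels were 184, 176, 189 and 216 CPM in C1 to C4, 158, 141, 164 and 153 CPM in V1 to V4, and 171, 165, 148 and 109 CPM in T1 to T4. Both diseased groups lay below Control-Veh without overlap, with T4 the lowest. Srsf5 passed in neither comparison with Control-Veh in edgeR, while DESeq2 called it in both. In the model it was also called by edgeR with only the 2 groups compared, or without T4.

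Across the 30 genes the median log2 fold change against Control-Veh was -0.13, beside -0.02 for all genes. Of the 30, 21 were below 0, 9 of them Srsf genes, beside 7602 of all 14333 genes. An unadjusted p under 0.05 in edgeR was reached by 9 of 30 (30.0%, beside 22.5% of all genes). Treated and control levels did not overlap for 7 genes, all lower, beside 14.8% of all genes in either direction. Of all 14333 genes, 1112 were higher and 1011 lower without overlap. The summed Srsf level was 625 ± 74.2 CPM (521 to 698) and the summed Hnrnp level 1262 ± 39.5 CPM (1213 to 1309). T4 was the lowest of the 4 treated libraries for 17 of the 30 genes (56.7%, beside 29.8% of all genes tested) and for 8 of the 10 Srsf genes. T2 was the highest for 16 of the 30. Without T4, Srsf11 was again the 1 gene called against Control-Veh.

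The 25 genes called in no comparison were held to narrow bounds. Their log2 fold changes ran from -0.40 (Srsf7) to 0.13 (Hnrnph2) in HFpEF-Veh against Control-Veh, from -0.28 (Hnrnpll) to 0.24 (Srsf7) after TYA-018, and from -0.37 (Srsf5) to 0.16 (Hnrnpc) in treated against control hearts. The 95% intervals lay within 0.5 of 0 for 21, 23 and 21 of the 25 genes and within 1 of 0 for all 25. The most abundant of them by TPM, Hnrnpk, a poly(C)-binding hnRNP, was at 131, 117, 124 and 125 CPM in C1 to C4, 120, 132, 143 and 127 CPM in V1 to V4, and 109, 120, 124 and 126 CPM in T1 to T4. These 3 ranges overlapped, with intervals of -0.08 to 0.22, -0.28 to 0.02 and -0.21 to 0.09 for the log2 fold change in the 3 comparisons. Pseudogenes share 17.1% of the 31-base words of Hnrnpk.

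Srsf2, a founding SR protein that activates exons and is needed for early spliceosome assembly, was at 112, 130, 127 and 133 CPM in C1 to C4, 123, 114, 114 and 116 CPM in V1 to V4, and 116, 126, 115 and 99.1 CPM in T1 to T4. The groups overlapped, and its log2 fold changes were -0.10 (95% interval -0.27 to 0.07), -0.04 (-0.21 to 0.13) and -0.14 (-0.31 to 0.03). Hnrnph1, which like Hnrnpf binds runs of G, was at 120, 111, 124 and 134 CPM in C1 to C4, 119, 106, 118 and 120 CPM in V1 to V4, and 103, 116, 109 and 91.5 CPM in T1 to T4. It too overlapped between groups, with log2 fold changes of -0.08, -0.14 and -0.22. Several uncalled genes share much sequence with pseudogenes or paralogues, among them Hnrnpa1 (29.3% of its words), Hnrnpa3 (28.1%) and Hnrnph2 (21.9%), so their counts are less certain.

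**Figure D2:**
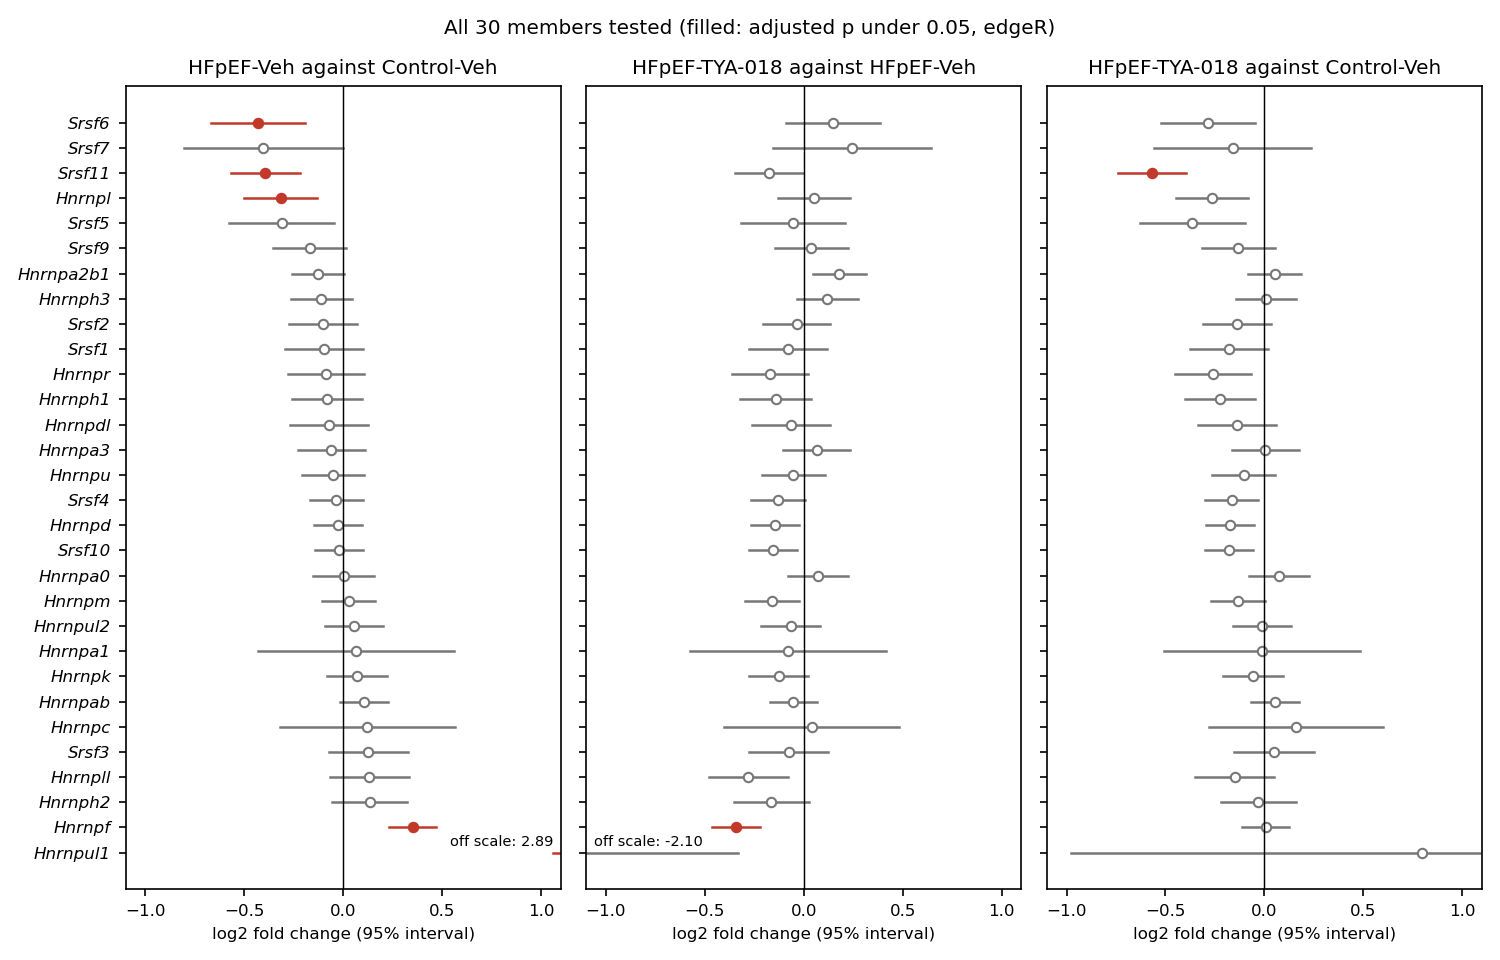
Log2 fold change (points) and 95% interval (lines) of the 30 tested genes in the 3 comparisons, in the order of the first, with filled red points for genes past an adjusted p of 0.05 in edgeR. Most intervals cover 0, the called genes other than Hnrnpul1 lie between -0.57 and 0.35, and estimates of Hnrnpul1 beyond the axis are given as text (2.89 and -2.10).

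Effective length is the mean transcript length that the quantifier assigned to a gene in a library, so it moves when a gene's reads shift between long and short isoforms. It also moves with fragment length and bias correction. The library medians differed between groups, at -0.0056 ± 0.036, 0.079 ± 0.033 and -0.073 ± 0.082 on the log2 scale against the mean of all libraries (SD, n = 4), and each library was centred on its median before the test. No gene of the 30 was called by effective length in limma in any comparison, beside 0.0349%, 5.84% and 0.00698% of all genes. An unadjusted p under 0.05 was reached by 0, 6 and 6 genes (0.0%, 20.0% and 20.0%), beside 16.7%, 27.5% and 9.50% of all genes. In this fit the 5 genes called by counts thus came without a called change in effective length. Under other settings, for HFpEF-TYA-018 against HFpEF-Veh, Hnrnpl was called without centring, and Srsf6 with library weights or without T4.

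The smallest adjusted p-values for length came after TYA-018. Centred effective lengths were higher than in HFpEF-Veh by 0.25 on the log2 scale for Srsf4 and by 0.18 for Hnrnph2 (both adjusted p = 0.0551, limma), by 0.31 for Hnrnph3 (adjusted p = 0.0612, limma) and by 0.23 for Srsf6 (adjusted p = 0.063, limma). None passed the threshold. Differences as large stood in the other comparisons with larger adjusted p-values, at 0.47 for Hnrnpm (adjusted p = 0.539, limma) and 0.33 for Hnrnph3 (adjusted p = 0.411, limma) in treated against control hearts, and at -0.37 for Srsf10 (adjusted p = 0.452, limma) in the model. For HFpEF-TYA-018 against HFpEF-Veh, limma without centring called 5 genes (Hnrnpc, Hnrnpl, Hnrnpul2, Srsf3 and Srsf5). With library weights, or without T4, it called 3 (Srsf4, Srsf6 and Hnrnph2). Srsf6 had uncentred effective lengths of 1262, 1217, 1137 and 1311 bases in C1 to C4, 1244, 1189, 1260 and 1175 in V1 to V4, and 1327, 1263, 1349 and 1215 in T1 to T4. These values overlapped between groups.

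Some genes varied widely in length among libraries, and for Hnrnpd the values fell into separate clusters present in every group. Hnrnpd, whose protein is the AU-rich element binding factor AUF1, varied 2.65-fold in effective length. It was at 1375 bases in C4, 1038 in V3, 1139 in T1 and 1316 in T2, and between 2348 and 2751 bases in the other 8 libraries, so each group held both states. Srsf10 varied 2.39-fold, from 2051 to 4899 bases, Hnrnpul1 2.32-fold and Hnrnpm 2.26-fold. The longest Srsf10 values were those of C1 to C3, at 3741, 4899 and 4295 bases, beside 2174 in C4. The median ratio of largest to smallest length was 1.39 for the 30 genes and 1.43 for all genes. Hnrnpm shares 14.0% of its words with March2, which overlaps it. These 4 genes were picked for their values after the fact.

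Annotation sets a limit on reading these lengths as isoforms. In GENCODE M21, which is not the release named in the study's methods, 19 of the 30 genes have at least 1 transcript typed for nonsense-mediated decay and 22 at least 1 with a retained intron. The effective length stayed within the span of annotated transcript lengths in all 12 libraries for 18 genes. For 6 it exceeded the longest annotated transcript in all 12 (Hnrnpa0, Hnrnpa2b1, Hnrnpab, Hnrnpc, Hnrnpul2 and Srsf7) and for 11 in at least 1. Hnrnpll lay below its shortest annotated transcript in 7 libraries. For these 12 genes a length cannot be read as a mix of annotated isoforms.

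**Figure D3:**
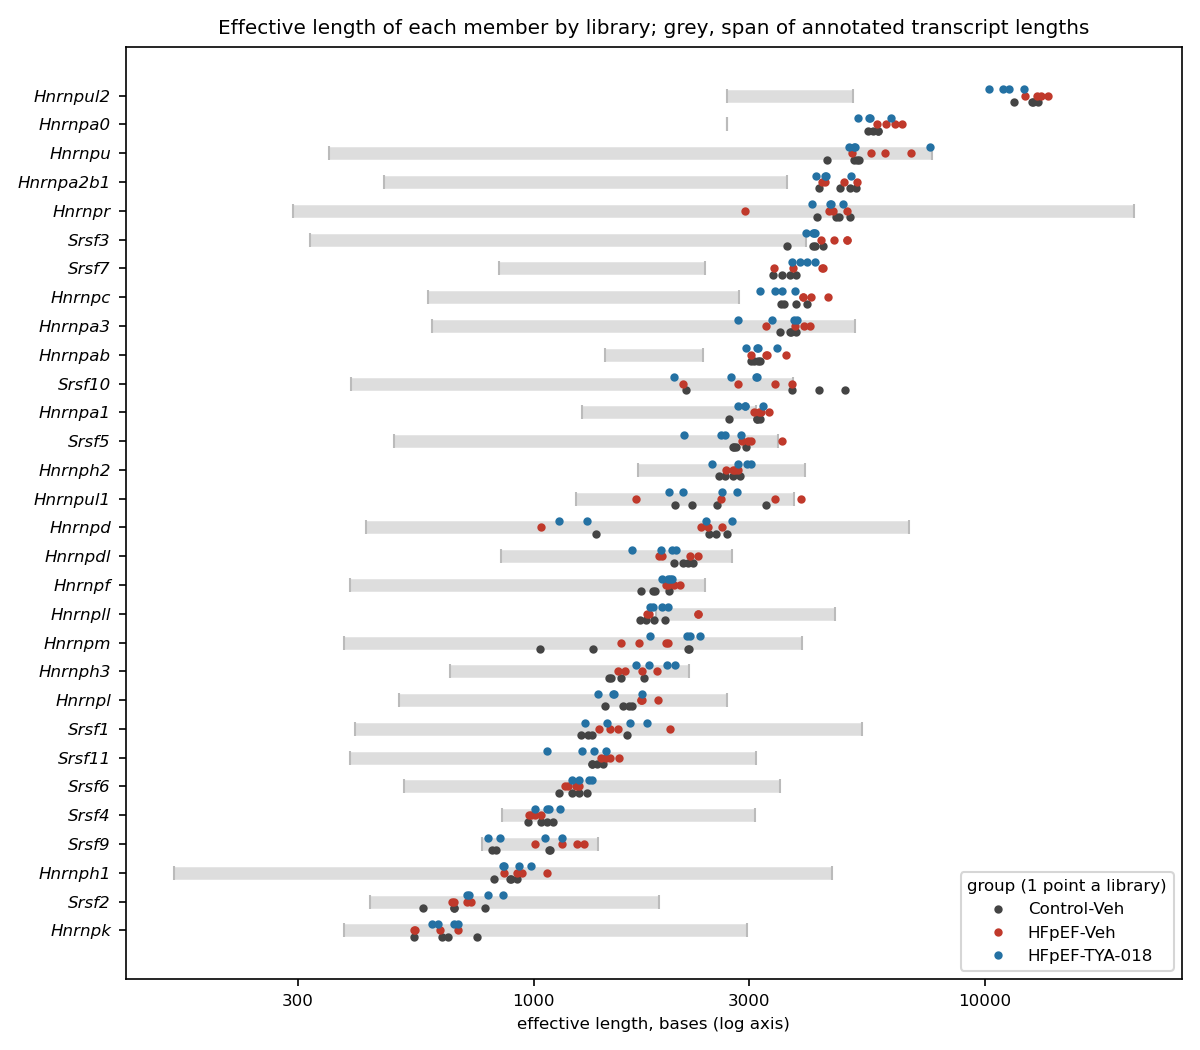
Effective length in bases (log axis) of the 30 tested genes, 1 point per library, coloured by group, over a grey span from the shortest to the longest annotated transcript. Hnrnpd shows separate clusters in every group, between 1038 and 1375 bases and between 2348 and 2751, and 6 genes such as Hnrnpa0, with 1 annotated length, lie beyond their span.

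The enzymes that act on these proteins were examined as a list of 12 genes, which are kinases, a phosphatase and import factors. In HFpEF-Veh against Control-Veh 0 rose and 2 fell, after TYA-018 2 rose and 0 fell, and in treated against control hearts 0 passed. These are 16.7%, 16.7% and 0.0% of the list, beside 21.2%, 19.3% and 5.86% of all genes in the same comparisons, the shares against which the lists that follow are also given. Srpk3, the muscle SR protein kinase, was at 21.7, 29.1, 27.5 and 25.9 CPM in C1 to C4, 17.5, 16.2, 16.6 and 15.8 CPM in V1 to V4, and 23.6, 24.7, 22.4 and 17.5 CPM in T1 to T4. HFpEF-Veh lay below both other groups. The log2 fold change was -0.66 in the model (adjusted p = 0.00211, edgeR) and 0.42 after TYA-018 (adjusted p = 0.0214, edgeR). Clk4, which phosphorylates SR tails in the nucleus, fell in the model by 0.35 on the log2 scale (adjusted p = 0.0474, edgeR). Its relative Clk3 was at 0.70 after TYA-018 (adjusted p = 0.0299, edgeR), with treated libraries from 7.86 to 11.8 CPM and vehicle libraries from 4.65 to 6.89 CPM. The second Srpk3 call was lost without V4, T1 or T2 and the Clk3 call without V3, V4, T1 or T2. The Clk4 call held only without C1, T2 or T4.

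Among 20 SR-related proteins, which carry arginine and serine repeats under other names, 0 rose and 5 fell in the model, 0 rose and 1 fell after TYA-018, and 0 rose and 5 fell in treated against control hearts. The shares called were 25%, 5.00% and 25%, beside 21.2%, 19.3% and 5.86% of all genes. The medians were -0.16, -0.04 and -0.22. Luc7l2, of the U1 particle, was at -0.54 (adjusted p = 0.00378, edgeR) and Srek1, a partner of SR proteins in exon recognition, at -0.46 (adjusted p = 0.00495, edgeR) in the model. Son, which anchors nuclear speckles, was at -0.34 and Bclaf1, a speckle-associated factor, at -0.22. For all 4, both diseased groups lay below Control-Veh without overlap, as for Srsf11. Against Control-Veh the treated values were -0.51 for Luc7l2, -0.52 for Srek1, -0.38 for Son and -0.26 for Bclaf1, each past the threshold. That of Luc7l2 was lost without C4 and that of Son without C4 or T3.

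Of 20 hnRNP-like proteins under other symbols, 1 rose and 2 fell in the model, 0 rose and 5 fell after TYA-018, and 0 rose and 4 fell in treated against control hearts (15.0%, 25% and 20.0%, beside 21.2%, 19.3% and 5.86% of all genes). Ptbp1, a polypyrimidine tract repressor, was at 33.8, 34.8, 37.6 and 35.9 CPM in C1 to C4, 48.7, 40.2, 43.4 and 41.3 CPM in V1 to V4, and 30.4, 33.8, 35.0 and 34.4 CPM in T1 to T4. As for Hnrnpf, HFpEF-Veh stood above both other groups, with log2 fold changes of 0.29 (adjusted p = 0.0126, edgeR) and then -0.38 (adjusted p = 0.00431, edgeR). Its paralogue Ptbp3 was at -0.70 after TYA-018 (adjusted p = 0.0109, edgeR). Of the cold-inducible RNA-binding proteins, Cirbp was at -0.66 in the model (adjusted p = 0.00194, edgeR) and Rbm3 at -0.38 after TYA-018 (adjusted p = 0.0139, edgeR), a direction that turned on the uncentred TPM scales.

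Of 19 tissue splicing regulators, 1 rose and 5 fell in the model, 1 rose and 2 fell after TYA-018, and 1 rose and 2 fell in treated against control hearts (31.6%, 15.8% and 15.8%, beside 21.2%, 19.3% and 5.86%). Rbm20, the cardiac regulator of titin splicing, was at 112, 108, 114 and 128 CPM in C1 to C4, 79.4, 70.4, 88.0 and 87.1 CPM in V1 to V4, and 116, 121, 111 and 93.2 CPM in T1 to T4. HFpEF-Veh was below both other groups without overlap, at -0.51 (adjusted p = 0.00386, edgeR), and the value after TYA-018 was 0.44 (adjusted p = 0.00887, edgeR). Rbfox1, which binds GCAUG elements in muscle and brain, was at -0.67 in the model (adjusted p = 0.00966, edgeR), Rbpms2 at -0.41 (adjusted p = 0.0105, edgeR) and Rbm5 at -0.34 (adjusted p = 0.0294, edgeR). Nova2, a regulator known from neurons and endothelium, was at 0.30 (adjusted p = 0.00966, edgeR) and then -0.40 (adjusted p = 0.00309, edgeR), and Khdrbs1 (Sam68) at -0.25 after TYA-018 (adjusted p = 0.0197, edgeR). The centred effective length of Nova2 was also called after TYA-018, at -0.34 on the log2 scale (adjusted p = 0.014, limma). The Rbm5 call was lost without C2, C3, C4, V2 or V3, and that of Khdrbs1 without V1, T1 or T3. The directions of Nova2 in both comparisons and of Khdrbs1 turned on the uncentred TPM scales.

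Of 40 core spliceosome genes, 0 rose and 4 fell in the model, 2 rose and 0 fell after TYA-018, and 1 rose and 1 fell in treated against control hearts. These shares, 10.0%, 5.00% and 5.00%, were below those of all genes (21.2%, 19.3% and 5.86%). Prpf19, of the catalytic activation complex, was at -0.26 (adjusted p = 0.0125, edgeR) and then 0.33 (adjusted p = 0.00466, edgeR), values that both turned with effective lengths as an offset. Snrpb, an Sm protein, was at 0.36 after TYA-018 (adjusted p = 0.00516, edgeR), Snrnp200, a helicase, at -0.22 in the model (adjusted p = 0.0191, edgeR) and Snrnp70, of the U1 particle, at -0.40 (adjusted p = 0.0409, edgeR). Of 11 nonsense-mediated decay genes, 0 rose and 2 fell in the model, 0 rose and 1 fell after TYA-018, and 0 passed in treated against control hearts (18.2%, 9.09% and 0.0%). Those were Upf3b at -0.42 (adjusted p = 0.00524, edgeR), the kinase Smg1 at -0.35 (adjusted p = 0.0324, edgeR) and Casc3, of the exon junction complex, at -0.23 after TYA-018 (adjusted p = 0.0422, edgeR), which turned on all 3 TPM scales. The calls of Snrnp70, Smg1 and Casc3 were lost in 9, 6 and 9 of the 12 fits that left out 1 library, and that of Snrnp200 without V2 or V3.

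**Figure D4:**
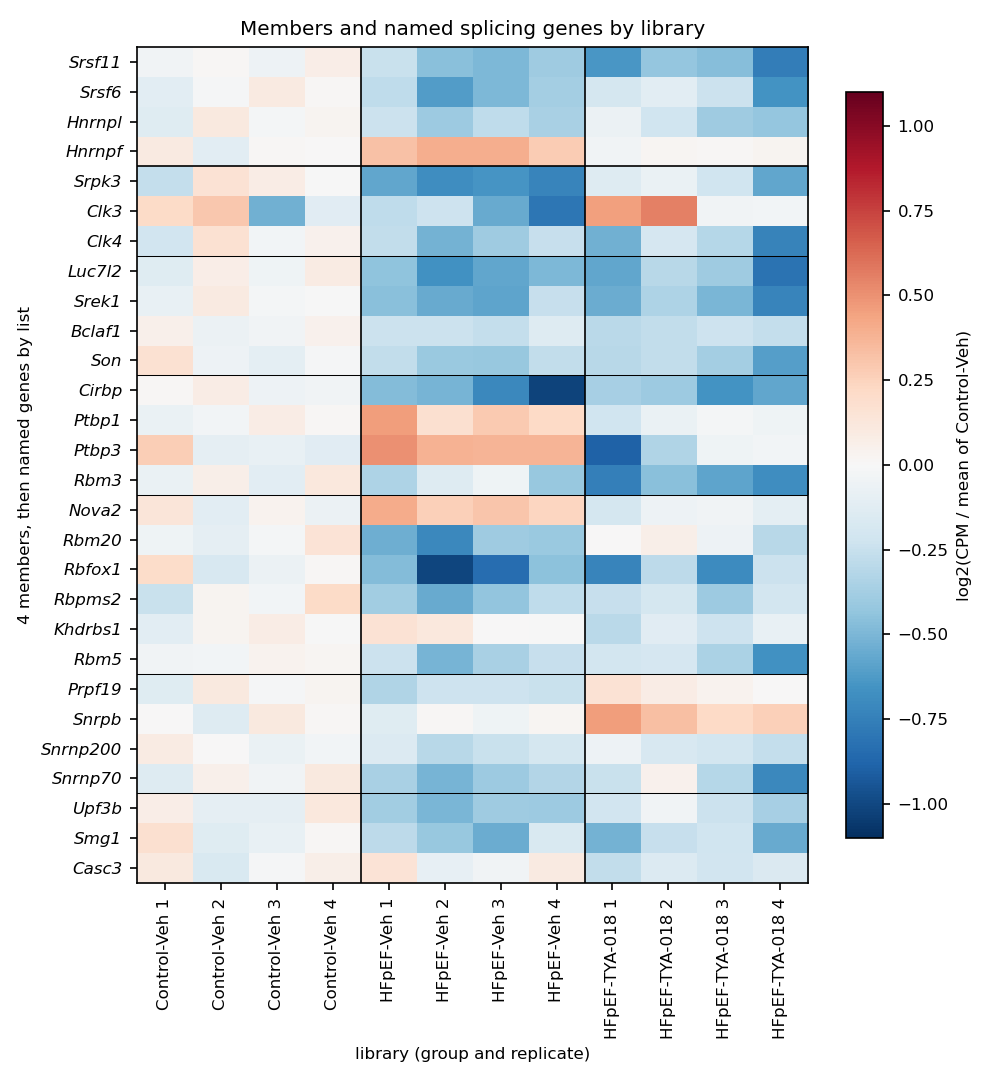
Log2 ratio of CPM to the Control-Veh mean (colour) in each of the 12 libraries for Srsf11, Srsf6, Hnrnpl and Hnrnpf, then for the named genes of the other lists, separated by lines. Luc7l2 and Srek1 are below the Control-Veh mean in all 8 diseased libraries as Srsf11 is, while Ptbp1 and Nova2 are raised in the HFpEF-Veh libraries as Hnrnpf is. The named genes were chosen by small p, so such patterns follow in part from the choice.

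Genes whose transcripts are classic cardiac splicing targets formed a last list of 24, of which 23 were tested. In the model 2 rose and 7 fell, after TYA-018 4 rose and 1 fell, and in treated against control hearts 1 rose and 3 fell (39.1%, 21.7% and 17.4%, beside 21.2%, 19.3% and 5.86% of all genes). Tnnt2, for cardiac troponin T, was at -0.49 (adjusted p = 0.00114, edgeR), Trdn, for the junctional protein triadin, at -0.41 (adjusted p = 0.00144, edgeR) and Ttn, for titin, at -0.40 (adjusted p = 0.00761, edgeR) in the model. Tnnt2 and Ttn also stand on the cardiomyocyte marker list, whose summed level was lower in HFpEF-Veh. These are gene totals, and exon use was not measured. No gene of this list was called by effective length, where the smallest adjusted p was 0.0551 (limma), after TYA-018.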

How the data were processed

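Left ventricular poly(A) RNA of 12 mice (3 groups of 4) was sequenced by the authors from a stranded library kit. The authors trimmed reads and ran Salmon 1.6.0, and summed transcripts to genes with tximport; the study's methods name a mouse GENCODE annotation on GRCm38, while the submitters' processing notes list a human build. The strand setting is not given in the sources used here, and the sources differ on read layout. The table deposited by the authors holds, per gene and library, an estimated count, a TPM and an effective length in bases, none rescaled afterwards. Estimated counts were rounded to whole numbers. The 29564 rows were filtered with edgeR's filterByExpr to 14333, which hold 99.98% of counts, scaled by TMM and fitted with a quasi-likelihood model over all 12 libraries (edgeR 4.0.16, R 4.3.3, 9 residual degrees of freedom). CPM are TMM-scaled. P-values were adjusted over all 14333 genes by Benjamini-Hochberg and called under 0.05. Effective lengths were tested with limma 3.58.1 on the log2 scale after centring each library on its median. Alternatives included DESeq2 1.42.0, other scalings, limma on log2(TPM + 1) and log2(TPM + 0.1), length offsets and leaving out each library.

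The SR protein and hnRNP genes and all lists were chosen with earlier results of these data known. Named genes are those called, the 3 uncalled genes of highest mean TPM, and up to 6 (kinases, tissue regulators) or 4 (other lists) called genes per list with the smallest p. One result under this rule is not reported here. Each test was tested on simulated data for HFpEF-Veh against Control-Veh, with 50 genes of 14333 changed at each size. The count fit recovered 4%, 32%, 66% and 88% of genes changed 1.25, 1.5, 2 and 4-fold. The length fit recovered 24%, 50%, 84% and 94% of shifts of 0.25, 0.5, 1 and 2 on the log2 scale, with 6 false calls. Shared 31-base words and transcript lengths came from GENCODE M21, and promoters from RefSeq (GRCm38.p6).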

Additional observations from a re-analysis of the deposited data

Results flagged for a closer look

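Among the members and the named list genes, 264 sets of 4 libraries were screened for 1 library far from its group, and 13 (4.92%) had a gap between that library and the nearest other beyond Dixon's 95% critical value for 4 values, as a share of the group's range. Chance alone flags about 1 in 20 groups.

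For CPM of the SR protein and hnRNP genes, T4 stood apart 3 times. It was low for Hnrnpa1 (40.9 CPM beside 55.6 to 58.5, gap 0.832 of the range) and Hnrnph3 (30.1 beside 33.1 to 33.4, gap 0.92), and high for Hnrnpul1 (1.58 beside 0.489 to 0.601, gap 0.897). V2 was low for Hnrnph1 (106 CPM beside 118 to 120, gap 0.842).

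For effective lengths, C2 was short for Hnrnpa1 (2707 bases beside 3122 to 3172, gap 0.893), V3 for Hnrnpd (1038 beside 2348 to 2618, gap 0.83) and C1 for Hnrnpu (4480 beside 5142 to 5273, gap 0.835). V2 was long for Hnrnpl (1886 beside 1727 to 1742, gap 0.908) and T4 for Hnrnpu (7555 beside 5008 to 5158, gap 0.941).

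Of the list genes, Ptbp3 was high in C1 (31.6 CPM beside 24.0 to 24.8, gap 0.901) and in V1 (37.2 beside 34.0 to 34.1, gap 0.943). Prpf19 was low in V1 (116 CPM beside 123 to 124, gap 0.849) and Upf3b in V2 (6.56 beside 7.03 to 7.12, gap 0.844). T4 accounted for 4 of the 13 cases and V2 for 3.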

How the results depend on the processing

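The number of the 30 genes called was 5 for the model against its control, 1 for TYA-018 against vehicle in the model and 1 for TYA-018 against Control-Veh. For the model it was 0 with limma on log2(TPM + 1) and on log2(TPM + 0.1), and 2 with log2(TPM + 1) centred by library, an alternative chosen after seeing the data. Leaving out 1 library gave 3 (without C2) to 6. For TYA-018 against vehicle it was 3 with DESeq2, 2 with RLE scaling, 4 with effective lengths as offset, 2 without mitochondrially encoded genes, 2 with each uncentred TPM scale, 2 with only the 2 groups compared, and 1 to 3 with a library left out. For TYA-018 against Control-Veh it was 4 with DESeq2, 0 on all 3 TPM scales, and 1 to 2 with a library left out. By effective length it was 0 under every setting in both comparisons with Control-Veh, and for TYA-018 against vehicle 5 without centring, 3 with library weights, and 0 to 3 with a library left out (3 without T4).

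The calls of Hnrnpf and Srsf11 (both comparisons each) and of Srsf6 were present in all 12 fits that left out a library. Of 1050 values of named genes under alternatives, 835 had the same direction and side of the threshold, 201 were weaker and 14 reversed. On the log2(TPM + 1) and log2(TPM + 0.1) scales, HFpEF-TYA-018 against HFpEF-Veh reversed to 0.20 and 0.22 for Rbm3, 0.10 and 0.30 for Nova2, 0.14 and 0.19 for Khdrbs1, and 0.27 and 0.41 for Casc3, and HFpEF-Veh against Control-Veh to -0.013 and -0.046 for Nova2. These scales shift the median of all genes to -0.07, 0.17 and 0.08, and to -0.17, 0.34 and 0.17. With centring Casc3 was at 0.062 after TYA-018 and Prpf19 at 0.036 in the model. With effective lengths as offset Prpf19 was at 0.14 and then -0.031. The causes were not tested. No paired analysis was possible because the animal numbers are not shared between groups. With 4 libraries a group, changes under 1.5-fold can be missed, at a rate the simulated recovery does not give for these genes. The simulation changed 200 of 14333 genes, while 3033 were called in HFpEF-Veh against Control-Veh, so its adjusted threshold was stricter. The SR protein and hnRNP genes also varied less within groups (median coefficient of variation 7.49%) than all genes tested (11.4%). Hnrnpf, Hnrnpl, Srsf11 and Srsf6 were called in HFpEF-Veh against Control-Veh with changes under 1.5-fold.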
